A study of Mus musculus with 6 samples.

Results

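The 9 genes described here mark the atrioventricular canal of the heart or carry its electrical impulse: the transcription factors Tbx2, Tbx3 and Irx3, the ion channel genes Hcn4, Cacna1g and Kcne1, and the gap junction genes Gja1, Gja5 and Gjc1. They were chosen by name for these functions, and all 9 were found among the 18810 genes of the deposited table. The RNA came from atrioventricular canal regions, with mitral, tricuspid and aortic valves, dissected from C57BL/6 mouse hearts at embryonic day 15.5. The libraries were 3 from embryos null for Scleraxis (Scx-/-) and 3 from wild type (Scx+/+) littermates. Scx is a basic helix-loop-helix transcription factor of tendons and heart valves, the null allele is carried in every cell of the embryo, and no cell type was sorted from the tissue.

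The atrioventricular canal is the segment of myocardium between atria and ventricles that conducts slowly, so that the chambers contract in turn. Tbx2 and Tbx3 are T-box repressors that keep chamber genes off in the canal, and part of this myocardium goes on to form the atrioventricular node. Fast conduction in the chambers relies on gap junctions rich in connexin 43 and connexin 40, encoded by Gja1 and Gja5, whereas connexin 45, encoded by Gjc1, forms channels of low conductance and is typical of the node. Hcn4 carries the pacemaker current, Cacna1g a T-type calcium current, and Kcne1 is the beta subunit that slows the potassium channel of Kcnq1. Irx3 is a homeodomain factor of the trabecular myocardium and the His-Purkinje system, where it is known to act on both Gja1 and Gja5.

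Values are RPKM, reads scaled to the exon length of the gene and to the mapped reads of the library, which can be compared between genes because they are scaled by length. Multiplied by exon length they gave whole reads, from which the depth of each library was recovered. For replicates 1 to 3 of Scx-/- it was 52323473, 66991267 and 59737806 reads, and for those of Scx+/+ 60027758, 46429967 and 68570958 reads. Scx (ENSMUSG00000034161, mm9 chromosome 15, 76287868 to 76289898) was 33.6, 18.6 and 82.9 RPKM in Scx-/- replicates 1 to 3 and 29.5, 58.3 and 26.0 RPKM in Scx+/+ replicates 1 to 3. The genotypes overlapped for the gene as a whole. The study checked the null allele at exon 1, for which the table has no value of its own, so the genotypes named here are those of the labels. Differences are limma log2 fold changes of RPKM + 0.1, Scx-/- minus Scx+/+, a scale that understates the change of low genes.

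A pair of libraries, Scx-/- replicate 3 and Scx+/+ replicate 2, stood apart from the other 4. Their summed RPKM over 14 cardiomyocyte markers was 31200 and 33700, against 26200 and 21300 in Scx-/- replicates 1 and 2 and 22000 and 19600 in Scx+/+ replicates 1 and 3. This sum was led by Myl2 (mean 8450 RPKM) and Tnnt2 (mean 4970 RPKM), and not every marker followed it. Ttn was lowest in Scx+/+ replicate 2 and Myl4 in Scx-/- replicate 3. In the pair Hbb-y, an embryonic globin of primitive red cells, was 1.16 and 1.99 RPKM, against 49.6 to 125 RPKM in the other 4. The sum over 9 erythroid markers did not set the pair apart. It was 9500 and 10600 RPKM in the pair and lowest in Scx+/+ replicate 1, at 7810 RPKM. The abundant globins Hba-a1, Hba-a2, Hbb-b1 and Hbb-b2 were each lowest in Scx+/+ replicate 1 as well. The 10 most abundant genes took 56.9% of the RPKM sum of Scx+/+ replicate 2 and 30.7% to 43.9% of that of the other 5. By Xist, a transcript of the inactive X chromosome, replicate 2 of both genotypes came from a female embryo, with 21.7 RPKM in Scx-/- and 12.7 RPKM in Scx+/+, and the other 4 libraries held it at the fill-in value of 0.0949 RPKM.

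Between genotypes, limma called no member of the group of 9 at an unadjusted p below 0.05. For 1 of the 9, Irx3, all 3 Scx-/- values lay below the lowest Scx+/+ value. Over all 18810 genes, 731 (3.89%) were called at an unadjusted p below 0.05 and 0 (0%) at an adjusted p below 0.05. Without Scx+/+ replicate 2 the unadjusted count was 1549, again with none of the 9 genes and with 0 at an adjusted p below 0.05. With all 6 libraries and each gene fitted alone, 862 genes were called and 1 passed after adjustment. The genotypes did not overlap for 1787 genes (9.5%), of which 435 (2.31%) were lower in Scx-/-. The median log2 fold change was 0.01 over the 9 genes and 0.10 over all genes, so a gene with no difference in RPKM lay slightly below the bulk of the table. Of the 731 called genes 531 were higher in Scx-/- and 200 lower, or 72.6% higher. That share was 43.5% with the libraries' median log2 ratios set to 0, 50.2% after quantile normalization and 45.2% with the trend on GC content and exon length taken out. With the median set to 0 the 9 genes ranged from -0.87 for Hcn4 to 0.26 for Gja5. Fewer cells of a type and less RNA per cell cannot be told apart in such tissue.

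**Figure D1:**
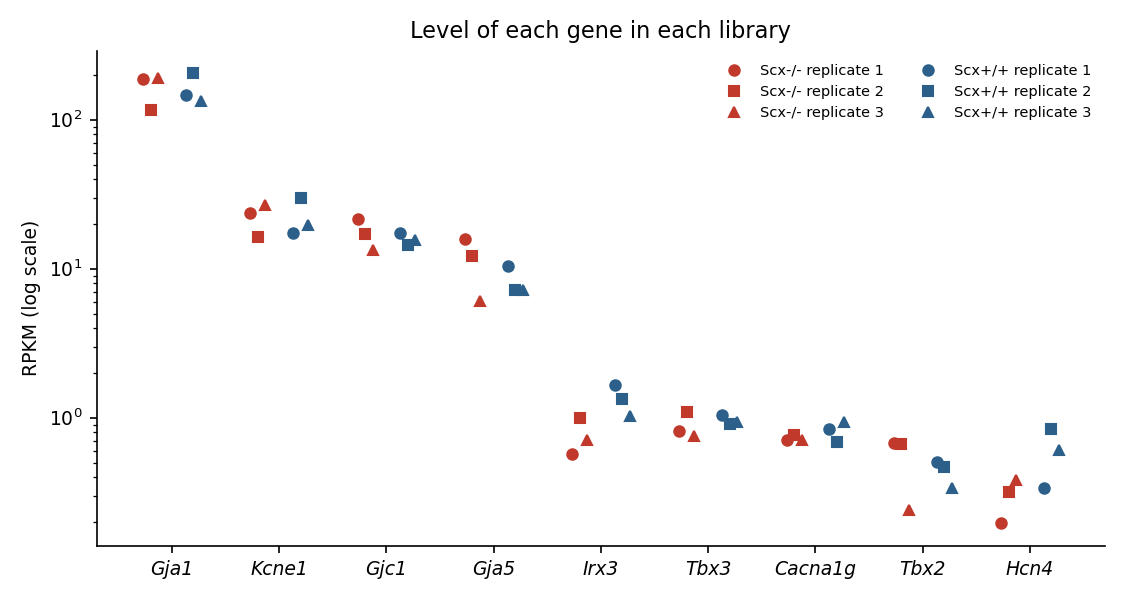
RPKM on a log axis for each of the 9 genes, ordered by mean level, with Scx-/- libraries in red and Scx+/+ libraries in blue and a marker shape for each replicate number. Gja1 lies above 100 RPKM in every library, Kcne1, Gjc1 and Gja5 lie between 6.10 and 29.6 RPKM, and the other 5 genes lie between 0.196 and 1.66 RPKM.

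The levels fell into 3 tiers. Gja1 was highest, with a mean of 164 RPKM over the 6 libraries, and its lowest library (117 RPKM) was above the highest library of any other of the 9 genes. Kcne1 (mean 22.3 RPKM), Gjc1 (16.6 RPKM) and Gja5 (9.84 RPKM) followed. The ranges of Kcne1 and Gjc1 overlapped, as did those of Gjc1 and Gja5, although Gjc1 was above Gja5 in all 6 libraries and Kcne1 above Gjc1 in 5 of them. The lowest tier held Irx3 (1.05 RPKM), Tbx3 (0.926 RPKM), Cacna1g (0.776 RPKM), Tbx2 (0.484 RPKM) and Hcn4 (0.447 RPKM). Within it, Irx3 was below Tbx3 in all 3 Scx-/- libraries and above it in all 3 Scx+/+ libraries. Tbx2 and Hcn4 were each the higher gene in 3 libraries, so this pair could not be ordered, whereas Cacna1g was above Tbx2 in every library. By mean level Gja1 stood at the 96.5th percentile of the table and Hcn4 at the 13.0th. None of the 9 genes was at the fill-in value in any library, and 4 of them, Tbx2, Tbx3, Hcn4 and Cacna1g, had a mean below 1 RPKM.

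Tbx2 (ENSMUSG00000000093, mm9 chromosome 11, 85646053 to 85655450, plus strand) is a T-box repressor of the early canal, where it is induced by Bmp2. It was 0.680, 0.671 and 0.240 RPKM in Scx-/- replicates 1 to 3 and 0.505, 0.469 and 0.338 RPKM in Scx+/+ replicates 1 to 3. The Scx-/- libraries held both the highest and the lowest values, so the genotypes overlapped throughout. The low value of Scx-/- replicate 3 rested on 52 reads, for which the exact Poisson 95% interval was 0.179 to 0.315 RPKM, below the interval of every other library except that of Scx+/+ replicate 3 (0.269 to 0.418 RPKM). Between genotypes Tbx2 differed by a log2 fold change of 0.15 (95% interval -1.01 to 1.31). It was 0.54 without Scx-/- replicate 3, -0.06 without Scx-/- replicate 1 and -0.05 without Scx-/- replicate 2.

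Tbx3 (ENSMUSG00000018604, mm9 chromosome 5, 120120678 to 120134733, plus strand) is the T-box repressor that persists in the mature conduction system. It was 0.809, 1.09 and 0.749 RPKM in Scx-/- replicates 1 to 3 and 1.05, 0.911 and 0.943 RPKM in Scx+/+ replicates 1 to 3. The Scx-/- libraries again spanned the Scx+/+ libraries, and Tbx3 varied little, with a coefficient of variation of 14.5% over the 6 libraries against 36.4% for Tbx2. Its log2 fold change was -0.13 (95% interval -0.93 to 0.66). Tbx3 exceeded Tbx2 in each library, by a ratio of 1.19 in Scx-/- replicate 1 to 3.12 in Scx-/- replicate 3. An antisense transcript, Gm2301, shares 115 bases (2.1%) of the Tbx3 exons, and since no strand is named for the counting its reads could not be told from those of Tbx3.

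Irx3 (ENSMUSG00000031734, mm9 chromosome 8, 94322428 to 94325553, minus strand) was 0.567, 0.994 and 0.709 RPKM in Scx-/- replicates 1 to 3 and 1.66, 1.33 and 1.02 RPKM in Scx+/+ replicates 1 to 3. All 3 Scx-/- libraries were below all 3 Scx+/+ libraries, with means of 0.757 ± 0.218 RPKM (SD, n = 3) and 1.34 ± 0.323 RPKM (SD, n = 3). The gap at the boundary was narrow: the highest Scx-/- library rested on 156 reads (95% Poisson interval 0.843 to 1.16 RPKM) and the lowest Scx+/+ library on 164 reads (0.870 to 1.19 RPKM), so these libraries did not differ beyond counting error. The log2 fold change was -0.75 (standard error 0.38, 95% interval -1.60 to 0.10), with an unadjusted p of 0.0774 and an adjusted p of 0.967 from limma. In limma, Irx3 was called with the median log2 ratio set to 0 (unadjusted p = 0.0432), without the intensity trend (unadjusted p = 0.0365), without Scx-/- replicate 2 (unadjusted p = 0.0418) and without Scx+/+ replicate 3 (unadjusted p = 0.0499), and in none of the other 13 alternatives. A noncoding gene on the opposite strand, D230002A01Rik, shares 124 bases (5.3%) of the Irx3 exons. The other Iroquois genes in the table did not share this separation, as Irx5, the neighbour of Irx3 in its cluster, was 1.49, 1.30 and 1.11 RPKM in Scx-/- replicates 1 to 3 and 2.16, 0.879 and 2.44 RPKM in Scx+/+ replicates 1 to 3.

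Hcn4 (ENSMUSG00000032338, mm9 chromosome 9, 58671319 to 58708762, plus strand), is the main pacemaker channel gene of the embryonic heart. It was 0.196, 0.318 and 0.383 RPKM in Scx-/- replicates 1 to 3 and 0.338, 0.845 and 0.603 RPKM in Scx+/+ replicates 1 to 3. The 2 highest values were both from Scx+/+ libraries, and Scx+/+ replicate 1 lay among the Scx-/- libraries. The log2 fold change was -0.76 (standard error 0.51, 95% interval -1.92 to 0.40), as large as that of Irx3 but with more spread. Leaving out a single library moved it from -0.50 without Scx+/+ replicate 2 (unadjusted p = 0.333 from limma) to -1.06 without Scx+/+ replicate 1 (unadjusted p = 0.0481), the only alternative in which Hcn4 was called. Hcn4 had the widest variation of the 9 genes, 52.7% over the 6 libraries, where counting error alone would give 8.0% in the library with the most reads of the gene and 16.0% in Scx-/- replicate 1, which had 39.

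Cacna1g (ENSMUSG00000020866, mm9 chromosome 11, 94269705 to 94335414, minus strand) encodes the T-type calcium channel Cav3.1 of nodal cells. It was 0.710, 0.763 and 0.714 RPKM in Scx-/- replicates 1 to 3 and 0.840, 0.689 and 0.943 RPKM in Scx+/+ replicates 1 to 3. The Scx-/- libraries were tightly grouped and fell within the Scx+/+ range, and the coefficient of variation over all 6 libraries, 12.6%, was the smallest of the 9 genes. For Cacna1g the log2 fold change was -0.15 (95% interval -0.97 to 0.68). Cacna1c, the L-type channel of working myocardium, was 11.3 to 16.6 times higher than Cacna1g per length in the 6 libraries.

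Kcne1 (ENSMUSG00000039639, mm9 chromosome 16, 92346246 to 92359713, minus strand) was 23.6, 16.4 and 26.9 RPKM in Scx-/- replicates 1 to 3 and 17.4, 29.6 and 19.8 RPKM in Scx+/+ replicates 1 to 3. The genotype means were the same, 22.3 ± 5.34 RPKM (SD, n = 3) for Scx-/- and 22.3 ± 6.48 RPKM (SD, n = 3) for Scx+/+, and the log2 fold change was 0.01 (95% interval -0.57 to 0.59), turning to -0.10 with the median log2 ratio set to 0. Kcnq1, the channel that Kcne1 modulates, was 4.20 to 6.72 RPKM, so Kcne1 RNA exceeded Kcnq1 RNA per length by 3.52 to 4.93 times in every library. Protein was not measured.

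**Figure D2:**
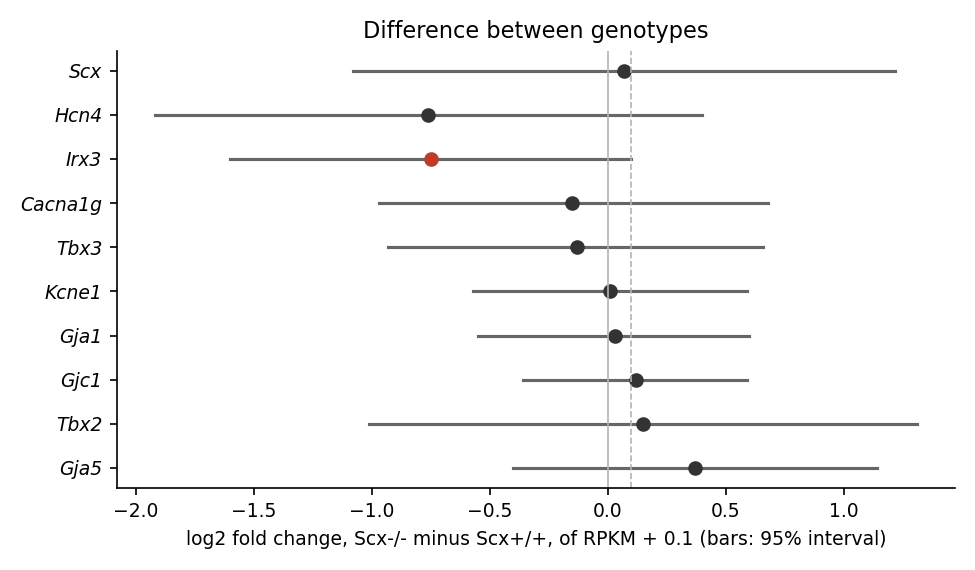
Log2 fold change of RPKM + 0.1, Scx-/- minus Scx+/+, with its 95% interval from limma, for Scx and the 9 genes. The solid vertical line marks 0 and the dashed line the median of all genes, 0.10. All 10 intervals include 0, and the red point marks Irx3, whose genotypes do not overlap.

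Gja1 (ENSMUSG00000050953, mm9 chromosome 10, 56097106 to 56110225, plus strand) was 189, 117 and 191 RPKM in Scx-/- replicates 1 to 3 and 147, 205 and 133 RPKM in Scx+/+ replicates 1 to 3. Each genotype held high and low libraries, and the means, 166 ± 42.5 RPKM (SD, n = 3) for Scx-/- and 162 ± 38.3 RPKM (SD, n = 3) for Scx+/+, differed by far less than the spread. The log2 fold change was 0.03 (95% interval -0.55 to 0.60), turning to -0.08 with the median log2 ratio set to 0. Each library held at least 24310 reads of Gja1, and the variation of 22.1% between libraries was well above a counting error of at most 0.6%.

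Gja5 (ENSMUSG00000057123, mm9 chromosome 3, 96708616 to 96881339, plus strand) was 15.9, 12.2 and 6.10 RPKM in Scx-/- replicates 1 to 3 and 10.4, 7.23 and 7.20 RPKM in Scx+/+ replicates 1 to 3. Scx-/- replicates 1 and 2 were above all Scx+/+ libraries and Scx-/- replicate 3 was below all of them. The log2 fold change was 0.37 (standard error 0.34, 95% interval -0.40 to 1.14). It fell to 0.08 without Scx-/- replicate 1, with an unadjusted p of 0.823 from limma, and rose to 0.77 without Scx-/- replicate 3, with an unadjusted p of 0.024 from limma, the only alternative of 17 in which Gja5 was called. The annotated gene shares 165 exon bases (2.9%) with Gpr89 on the opposite strand. Gpr89 itself was 2.85 ± 0.174 RPKM (SD, n = 3) for Scx-/- and 2.26 ± 0.348 RPKM (SD, n = 3) for Scx+/+.

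Gjc1 (ENSMUSG00000034520, mm9 chromosome 11, 102660893 to 102681014, minus strand) was 21.7, 17.0 and 13.3 RPKM in Scx-/- replicates 1 to 3 and 17.3, 14.4 and 15.5 RPKM in Scx+/+ replicates 1 to 3. As with Gja5, the highest and the lowest library were both Scx-/-. Gjc1 had a log2 fold change of 0.12 (95% interval -0.36 to 0.59), turning to -0.06 without Scx-/- replicate 1.

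Among connexin genes, Gja1 made up 75.4% to 87.7% of the summed RPKM of Gja1, Gjc1, Gja5, Gja4 and Gja3 in a library. Gjc1 contributed 6.1% to 11.0% and Gja5 2.8% to 7.9%. Both shares were lowest in the pair of libraries that stood apart, with Gjc1 at 6.1% in each and Gja5 at 2.8% in Scx-/- replicate 3 and 3.1% in Scx+/+ replicate 2. Gja4, a connexin of arterial endothelium, contributed 0.8% to 3.9% and Gja3 1.5% to 3.2%. The ratio of Gja5 to Gjc1 was 0.73, 0.72 and 0.46 in replicates 1 to 3 of Scx-/-, and it was 0.60, 0.50 and 0.46 in those of Scx+/+.

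**Figure D3:**
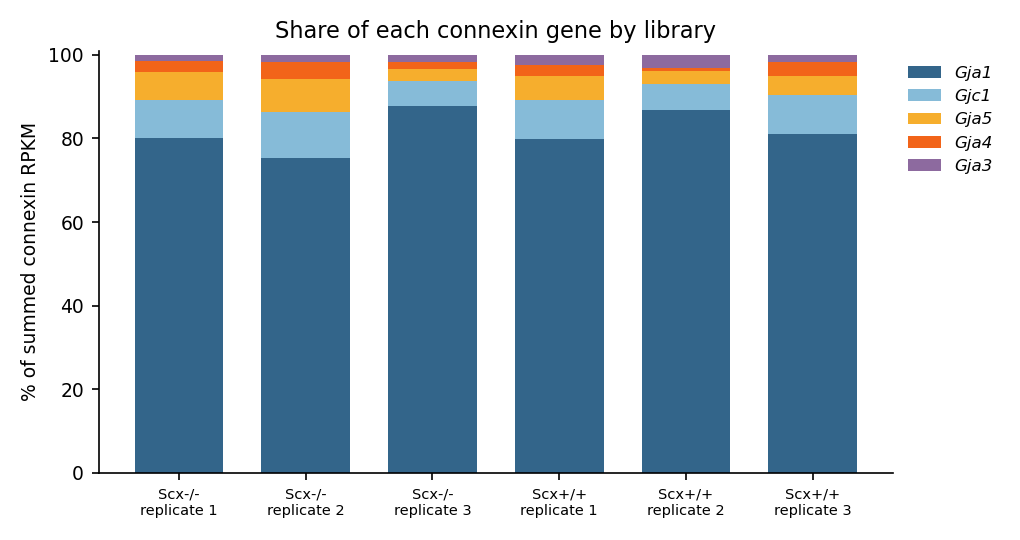
Share of the summed RPKM of 5 connexin genes, in percent, stacked for each library. Gja1 takes at least 75.4% in every library, and its share is highest in Scx-/- replicate 3 (87.7%) and Scx+/+ replicate 2 (86.9%).

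The 9 genes did not move as 1 group between libraries. Gja1 and Kcne1 were highest in the same 3 libraries, in the order Scx+/+ replicate 2, Scx-/- replicate 3 and Scx-/- replicate 1, and both were lowest in Scx-/- replicate 2. The same 3 libraries were highest for the sum of the 14 cardiomyocyte markers given above, all of which were in the table, and for 7 of them, Myl2, Myl3, Tnnt2, Tnni1, Tnni3, Actc1 and Pln. The other 7, Myh6, Myh7, Myl4, Myl7, Actn2, Ttn and Ryr2, had other orders, and Ttn was lowest in Scx+/+ replicate 2, at 92.4 RPKM against 152 to 200 RPKM in the other 5 libraries. Per 1000 RPKM of the sarcomere gene Tnnt2, Gja1 was 36.0, 28.4 and 28.6 RPKM in Scx-/- replicates 1 to 3 and 35.3, 33.9 and 37.6 RPKM in Scx+/+ replicates 1 to 3. The part of myocardial content in the levels of Gja1 and Kcne1 was not tested.

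Tbx2 and Gja5 shared another order, in which Scx-/- replicates 1 and 2 were highest, Scx+/+ replicates 1, 2 and 3 followed, and Scx-/- replicate 3 was lowest. Smooth muscle markers, summed over 5 genes, were also highest in Scx-/- replicates 1 and 2, at 672 and 567 RPKM, with 541 RPKM in Scx+/+ replicate 1 and 446 to 478 RPKM in the other 3 libraries. Singly, only Cnn1 and Tagln were highest in Scx-/- replicates 1 and 2. Acta2 was higher in Scx+/+ replicate 1 (437 RPKM) than in Scx-/- replicate 2 (395 RPKM). Myh11 was highest in Scx+/+ replicate 2 (2.44 RPKM) and Smtn in Scx+/+ replicate 3 (2.86 RPKM). Myh11, a defining gene of mature smooth muscle, was 0.467 to 2.44 RPKM, and the most abundant gene of that list, Acta2 (343 to 549 RPKM), is also expressed by embryonic cardiomyocytes. Smooth muscle was not alone in this. Scx-/- replicates 1 and 2 were also highest for the epicardium sum (33.0 and 33.9 RPKM, against 18.1 to 25.1 RPKM) and the macrophage sum (9.45 and 10.8 RPKM, against 6.91 to 8.13 RPKM). In the other marker lists a different pair was highest. The atrial gene Myl4, unlike the rest of its list, was highest in Scx-/- replicates 1 and 2 and lowest in Scx-/- replicate 3. Whether any of these markers bear on Tbx2 and Gja5 was not tested. Irx3 alone of the 9 genes had its 3 highest libraries in Scx+/+, and Tbx3, Hcn4 and Cacna1g each had 2 of their 3 highest there.

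**Figure D4:**
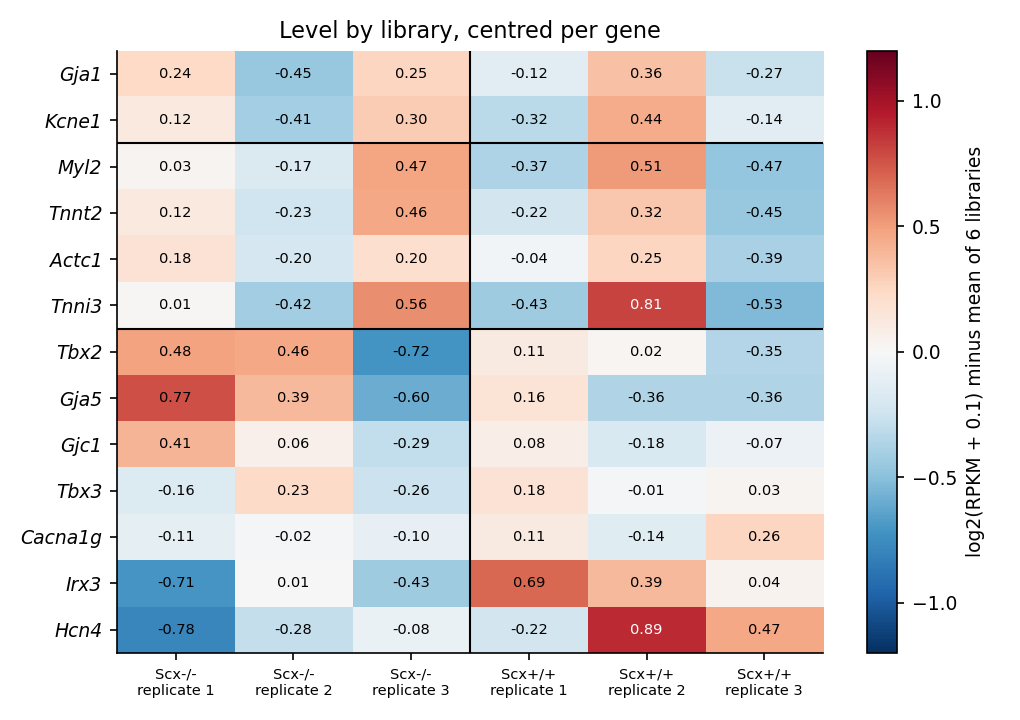
Log2(RPKM + 0.1) minus the mean over the 6 libraries, in rows for Gja1 and Kcne1 (top), 4 of the 7 cardiomyocyte markers with the same 3 highest libraries (middle) and the other 7 genes (bottom), and in columns for the libraries, with Scx-/- on the left of the vertical line. Red is above and blue below the mean of a gene. The top and middle rows are red in Scx-/- replicate 3 and Scx+/+ replicate 2, whereas Gja5 is blue in both. The middle rows were chosen for this order, and 7 of the 14 cardiomyocyte markers, not shown, had other orders.

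The distance between profiles was measured as the root mean square difference of these centred log2 values over the 6 libraries. Gja1 and Kcne1 were 0.118 apart, Tbx3 and Cacna1g 0.165, and Tbx2 and Gja5 0.204, and each was the nearest of the 9 genes to the other of its pair. Hcn4 had the largest distance to its nearest member, 0.498 to Irx3, and Hcn4 and Gja5 were the pair farthest apart, at 0.959. Among the 13450 genes that averaged 1 RPKM or more and had no library at the fill-in value, Dvl2 (0.021) and Coq4 (0.052) were most like Gja1, and Glrx5 (0.056) and P4ha2 (0.063) most like Kcne1. Polq (0.024) and Ppp1r9b (0.039) were most like Gjc1, and Wfs1 (0.089) and Rabep2 (0.095) most like Gja5. For the genes of the lowest tier, the nearest were Myoz1 (0.090) and Mogs (0.094) for Tbx2, Kdm1b (0.045) and the pseudogene Gm8805 (0.062) for Tbx3, and Enah (0.044) and Tbck (0.050) for Cacna1g. Hcn4 was nearest to the pseudogene Gm5265 (0.150) and to Trim34b (0.169), and Irx3 to the pseudogene Gm9835 (0.146) and the noncoding RNA Gm11574 (0.164). The number of these 13450 genes nearer to a gene than its nearest of the 9 was 42 for Kcne1, 91 for Gja1, 85 for Tbx2, 90 for Gja5, 193 for Irx3, 397 for Tbx3, 682 for Cacna1g, 1119 for Hcn4 and 4793 for Gjc1.

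Scx binds E-boxes and the T-box factors bind a short core, so the stretch before the RefSeq start of 3 genes is shown: Gja1, which is the most abundant, Gja5, which shares its library order with Tbx2, and Irx3, whose genotypes did not overlap. RefSeq promoters were at hand for 4 of the 9 genes, Gja1, Gja5, Hcn4 and Irx3. The 250 bases upstream of the RefSeq start on GRCm38.p6 lie at chr10:56377050-56377299 (plus strand) for Gja1, chr3:97032152-97032401 (plus strand) for Gja5 and chr8:91801655-91801904 (minus strand) for Irx3. On mm9 the RefSeq start is that of the counted gene for Gja1 and Irx3, lies 563 bases before it for Hcn4, and for Gja5 lies 127709 bases inside the counted gene, so the Gja5 window is not the stretch before the first counted exon. The windows are printed 5′ to 3′ in the direction of the gene, in lower case, with E-boxes in capitals.
Gja1: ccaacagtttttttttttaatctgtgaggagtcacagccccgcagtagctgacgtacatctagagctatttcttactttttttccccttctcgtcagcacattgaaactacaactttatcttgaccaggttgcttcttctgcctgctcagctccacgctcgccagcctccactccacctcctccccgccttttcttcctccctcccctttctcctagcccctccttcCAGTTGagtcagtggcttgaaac
Gja5: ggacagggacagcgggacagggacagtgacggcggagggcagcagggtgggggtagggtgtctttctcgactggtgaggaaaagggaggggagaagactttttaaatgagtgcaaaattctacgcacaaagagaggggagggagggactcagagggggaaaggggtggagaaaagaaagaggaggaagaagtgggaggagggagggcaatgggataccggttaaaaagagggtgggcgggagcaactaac
Irx3: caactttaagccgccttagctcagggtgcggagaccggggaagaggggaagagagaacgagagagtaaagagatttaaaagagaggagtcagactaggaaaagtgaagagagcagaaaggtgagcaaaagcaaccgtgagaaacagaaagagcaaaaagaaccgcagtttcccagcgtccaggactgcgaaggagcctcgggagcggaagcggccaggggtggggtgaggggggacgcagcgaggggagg
Both strands were searched for the E-box CANNTG and for the T-box core TCACAC, and the motifs do not overlap. Gja1 held 1 E-box (CAGTTG) and no T-box core, and Gja5, Irx3 and Hcn4 held neither in these windows. Of 32851 mouse promoters of the same length, 66.2% held an E-box and 12.3% a T-box core. Base composition differed, with a GC content that was lowest for Gja1 and was 56.4% for Gja5, 56.0% for Irx3 and 71.2% for Hcn4. In the transcripts themselves, the exons of Gja1 had the lowest GC content of the 9 genes, 44.3%, and those of Irx3 (63.3%) and Tbx2 (63.2%) the highest. In position, Tbx2, Cacna1g and Gjc1 all lie on chromosome 11, which holds 8.41% of the matched genes of the table.

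The labelled tissue was set against its markers. Bmp2, the inducer of Tbx2, was 0.677 to 1.73 RPKM, and Msx2, a marker of the early canal, was 0.0949 to 0.559 RPKM. The myosin light chain Myl2, a ventricular marker and the most abundant gene of both the cardiomyocyte and the ventricular list, was 5910 to 11600 RPKM, and the atrial gene Myl7 was 299 to 537 RPKM. Valve mesenchyme was represented by Postn, the most abundant of 6 such markers, at 161 to 387 RPKM. Myl2 stood at percentile 99.9 of the table and Myl7 at percentile 98.5, whereas Tbx2 stood at percentile 14.3 and Tbx3 at percentile 25.1. Other regulators of the canal were higher than these T-box genes, with Tbx20 at percentile 91.3 and Hey2 at percentile 90.2. The shares of chamber and canal myocardium in the tissue were not tested.

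Of 23 other regulators of the canal and the conduction system, 22 were in the table and 18 averaged 1 RPKM or more, and none was called or had genotypes that did not overlap. Their median log2 fold change was 0.12, beside 0.10 for all genes. Tbx20, a T-box factor of valve and myocardium that is needed to confine Tbx2, was the most abundant at 34.5 to 62.9 RPKM, and it exceeded Tbx3 by 37.9 to 66.1 times in a library. The values furthest from 0 belonged to low genes: Msx1 was 0.816 ± 0.510 RPKM (SD, n = 3) for Scx-/- and 0.349 ± 0.185 RPKM (SD, n = 3) for Scx+/+, with overlapping libraries. The pacemaker factor Shox2 was 0.263 to 1.28 RPKM, and Isl1 was not listed.

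Of the chamber genes known to be repressed by Tbx2 and Tbx3, Nppa, Smpx and Kcnj2 were not called and overlapped between genotypes. Nppa, atrial natriuretic peptide, was the most abundant, at 982, 724 and 453 RPKM in Scx-/- replicates 1 to 3 and 564, 1440 and 407 RPKM in Scx+/+ replicates 1 to 3. Its log2 fold change was -0.01 (95% interval -1.09 to 1.06). Both T-box genes were at most 1.09 RPKM in every library.

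Of 14 other gap junction and related genes, 4 were in the table and none was called. They were the connexin genes Gja3 and Gja4, the pannexin gene Panx1 and Tjp1. Tjp1, which encodes the scaffold protein ZO-1 that binds connexin 43, was the most abundant at 15.3 to 26.8 RPKM. Gja3 was 2.86 to 7.51 RPKM and Panx1 1.23 to 3.05 RPKM. The median log2 fold change of the 4 genes was -0.10.

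Of 26 other cardiac ion channel genes, 21 were in the table, and 1, Kcne4, was called, against 3.89% of all genes. Kcne4, another small beta subunit, which inhibits the channel of Kcnq1, was 2.01, 1.76 and 1.98 RPKM in Scx-/- replicates 1 to 3 and 0.818, 1.45 and 1.06 RPKM in Scx+/+ replicates 1 to 3. The genotypes did not overlap, and the log2 fold change was 0.77 (standard error 0.32), with an unadjusted p of 0.0411 and an adjusted p of 0.967 from limma. It was 0.66 with the median log2 ratio set to 0, with an unadjusted p of 0.0683 from limma, and the call was kept in 6 of 17 alternatives. Leaving out Scx+/+ replicate 2 kept it, and leaving out any other library lost it, with a highest p of 0.0997 from limma without Scx+/+ replicate 1. The most abundant channel gene was Kcnj2, an inward rectifier of working myocardium, at 13.6 to 20.5 RPKM. The median log2 fold change of the 21 genes was 0.05.

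Markers of other cell types show how the dissected pieces differed. The summed cardiomyocyte markers differed by a log2 of 0.09 between genotypes (exact permutation test, two-sided, p = 0.8, where 0.1 is the smallest p that 3 libraries against 3 allow). Of these 14 genes 1 was called, against 3.89% of all genes: Ryr2, the calcium release channel of the sarcoplasmic reticulum, at 36.7 ± 6.59 RPKM (SD, n = 3) for Scx-/- and 50.3 ± 5.11 RPKM (SD, n = 3) for Scx+/+. Its log2 fold change was -0.46, with an unadjusted p of 0.0308 from limma. The call was kept in 11 of 17 alternatives, and it was lost without the intensity trend, with the length and GC trend removed (unadjusted p = 0.224) and without Scx-/- replicate 1 or 2 or Scx+/+ replicate 1 or 3, with a p of 0.0928 from limma without Scx-/- replicate 2. Myh7, the slow myosin heavy chain, was not called but was also lower in every Scx-/- library, at 2130 ± 196 RPKM (SD, n = 3), than in Scx+/+, at 2680 ± 257 RPKM (SD, n = 3). In the 5 atrial markers none was called, and Myh6 was the most abundant at 900 to 2220 RPKM.

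Of the 4 arterial endothelium markers 1 was called, against 3.89% of all genes, and 2 were lower in Scx-/- without overlap, against 2.31%. Efnb2 was called, at 6.58, 5.41 and 5.53 RPKM in Scx-/- replicates 1 to 3 and 7.72, 8.09 and 8.45 RPKM in Scx+/+ replicates 1 to 3. Its log2 fold change was -0.47 (standard error 0.19), with an unadjusted p of 0.0342 and an adjusted p of 0.967 from limma, and the call was kept in 11 of 17 alternatives. It was lost without Scx-/- replicate 2 (unadjusted p = 0.0590 from limma), Scx-/- replicate 3 or Scx+/+ replicate 3. The Efnb2 call was also lost without both libraries that stood apart, with sex as a covariate and with a block for the replicate number. Dll4, a Notch ligand of arteries, was 1.13 ± 0.0696 RPKM (SD, n = 3) for Scx-/- and 1.85 ± 0.208 RPKM (SD, n = 3) for Scx+/+ and did not overlap, with an unadjusted p of 0.0509 from limma. It was called in 8 of 17 alternatives, and p was 0.0202 with the median log2 ratio set to 0 and 0.0921 without Scx+/+ replicate 1. The other 2 genes, Sox17 and Gja4, had log2 fold changes above 0, at 0.32 and 0.45. Summed over the 4 genes the list was 15.5, 14.1 and 11.2 RPKM in Scx-/- replicates 1 to 3 and 15.8, 13.1 and 16.4 RPKM in Scx+/+ replicates 1 to 3 (exact permutation test, two-sided, p = 0.5). Of 7 general endothelium markers none was called, and Pecam1 led at 33.3 to 39.4 RPKM. They summed to 122 ± 11.2 RPKM (SD, n = 3) for Scx-/- and 124 ± 8.04 RPKM (SD, n = 3) for Scx+/+ (exact permutation test, two-sided, p = 0.9), and the log2 difference of -0.02 became -0.13 with the median log2 ratio set to 0 (p = 0.1 in the same test).

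Of 6 epicardium markers 2 were called, both higher in Scx-/-, against 3.89% of all genes, Upk1b at 4.84 ± 0.906 RPKM (SD, n = 3) for Scx-/- and 3.13 ± 0.535 RPKM (SD, n = 3) for Scx+/+, and Aldh1a2, a retinoic acid synthase, at 4.46 ± 0.567 RPKM (SD, n = 3) and 2.94 ± 0.641 RPKM (SD, n = 3). The unadjusted p from limma was 0.0378 for Upk1b and 0.0430 for Aldh1a2, and 0.0512 and 0.0564 with the median log2 ratio set to 0. Both calls were lost without Scx-/- replicate 1 (0.115 and 0.124), Scx-/- replicate 2, Scx+/+ replicate 1 or Scx+/+ replicate 3, and that of Aldh1a2 also without Scx-/- replicate 3. Over 17 alternatives the call was kept in 11 for Upk1b and in 6 for Aldh1a2. Tbx18 was the most abundant of that list at 4.44 to 10.3 RPKM, and the list summed to 33.0, 33.9 and 22.8 RPKM in Scx-/- replicates 1 to 3 and 25.1, 18.1 and 24.8 RPKM in Scx+/+ replicates 1 to 3 (exact permutation test, two-sided, p = 0.3). Of 6 macrophage markers 1 was called, against 3.89% of all genes: Cd68, at 0.998 ± 0.480 RPKM (SD, n = 3) and 0.309 ± 0.195 RPKM (SD, n = 3), and the call was kept in 9 of 16 alternatives, with a highest p of 0.103 from limma. It was lost without Scx-/- replicate 2 (unadjusted p = 0.0988 from limma), Scx-/- replicate 3 or Scx+/+ replicate 2, and without both libraries that stood apart. The Cd68 call was also lost with each gene fitted alone, with the length and GC trend removed and with a block for the replicate number. For Cd68, Scx+/+ replicate 2 was at the fill-in value of 0.0949 RPKM, and Scx+/+ replicates 1 and 3 held 27 and 41 reads. The most abundant macrophage gene, Mrc1, was 3.35 to 4.64 RPKM with a log2 fold change of -0.14, and the 6 genes summed to 9.17 ± 1.74 RPKM (SD, n = 3) for Scx-/- and 7.72 ± 0.699 RPKM (SD, n = 3) for Scx+/+ (exact permutation test, two-sided, p = 0.3).

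In the remaining lists no gene was called. Tagln, of the 5 smooth muscle markers, was higher in all Scx-/- libraries, at 78.6 ± 29.0 RPKM (SD, n = 3) against 52.6 ± 4.50 RPKM (SD, n = 3), with an unadjusted p of 0.0614 from limma. The 6 valve mesenchyme markers had a median log2 fold change of -0.09. Postn alone was above 0, at 0.51 (95% interval -0.11 to 1.14), and the others lay between -0.50 and -0.01. Col1a1 was lower in all Scx-/- libraries, at 7.71 ± 0.375 RPKM (SD, n = 3) against 11.4 ± 3.93 RPKM (SD, n = 3), with an unadjusted p of 0.0746 from limma. The list summed to 470 ± 78.2 RPKM (SD, n = 3) for Scx-/- and 386 ± 33.3 RPKM (SD, n = 3) for Scx+/+ (exact permutation test, two-sided, p = 0.3). Postn was the largest part of that sum, with means of 299 RPKM for Scx-/- and 209 RPKM for Scx+/+. Red cell RNA was abundant in every library, with Hba-a1, which shares reads with its near copy Hba-a2, at 2460 to 4240 RPKM, and none of 9 erythroid markers was called. Nerve markers were low, with the Schwann cell gene Erbb3 at 0.913 to 1.46 RPKM and the neuronal gene Tubb3 at 0.0949 to 1.15 RPKM.

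**Figure D5:**
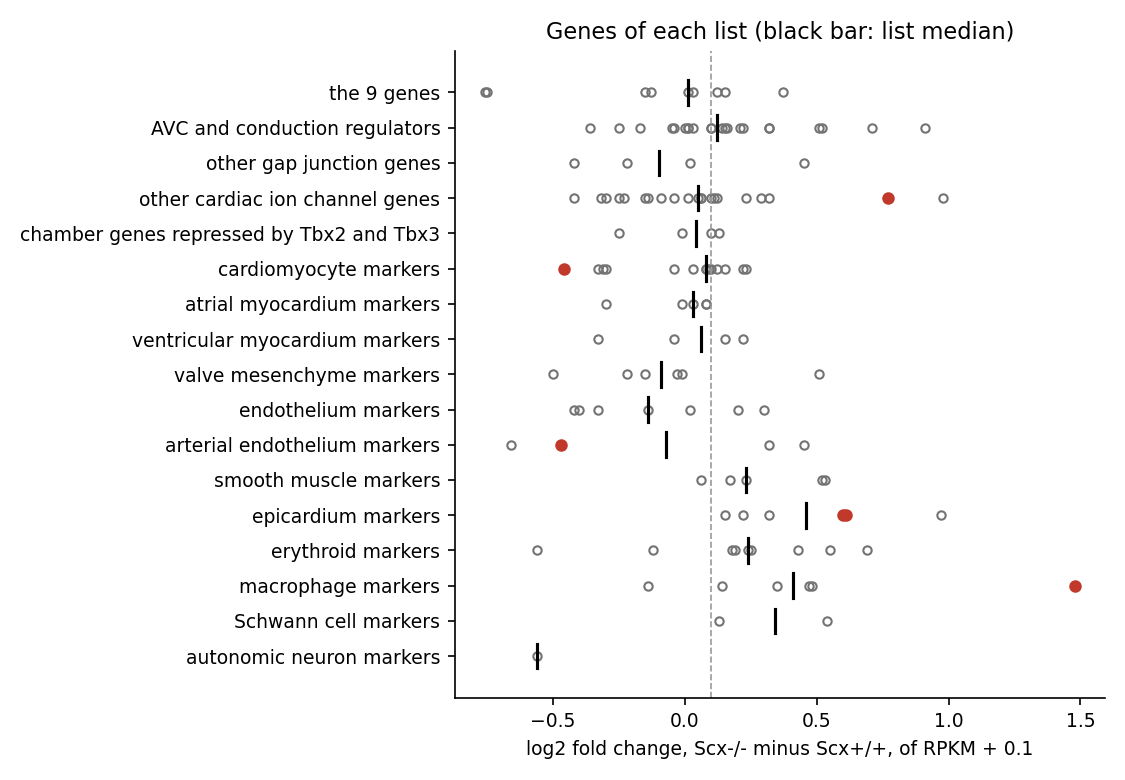
Log2 fold change of RPKM + 0.1, Scx-/- minus Scx+/+, for each gene of the 9 and of 16 lists (circles), with those at an unadjusted p below 0.05 filled in red, the median of each list as a black bar and the median of all genes, 0.10, as a dashed line. A gene may stand in more than 1 list. The 9 genes hold no red circle, and Hcn4 and Irx3 lie together at the left of their row.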

How the data were processed

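The authors aligned the reads of each library to mm9 with TopHat 1.4.1 (also named in the submitters' processing notes), counted them over Ensembl exons with easyRNASeq and deposited RPKM, per their methods keeping genes with enough reads in at least 1 library and replacing low values by a common one (0.0949 RPKM, 8395 values in the table). Columns were matched to genotype and replicate by their labels. Gene names, positions and exon lengths came from the GENCODE annotation of mm9 (18695 of 18810 identifiers matched). Depth was the smallest number of reads that made RPKM times exon length whole, which held within 0.1 read for 98.45% to 98.57% of values under 1000 reads. Poisson intervals cover counting error only. Recovered reads were used to describe precision and not for a test.

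Differences were fitted with limma 3.58.1 (R 4.3.3) on log2(RPKM + 0.1), with no covariate, variances moderated along an intensity trend, and p-values adjusted by Benjamini-Hochberg over all 18810 genes. Called means an unadjusted p below 0.05, after the study's methods, with the adjusted count beside it. Marker sums were compared by exact permutation. Lists were described by counts and medians. The genes and lists were chosen with earlier results of these data known. Named are Scx, the 9 genes, the list genes called or without overlap, the most abundant gene of each list, and for each of the 9 genes the 2 genes with the nearest profile. Other list genes (among them Bmp2, Msx1, Msx2, Shox2, Irx5, Gja3, Panx1, Cacna1c, Kcnq1, Myl7 and Hbb-y) were named after their values were seen, as were Xist and Gpr89.

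The alternatives tried were other pseudocounts (0.01, 1), a filter at a mean of 1 RPKM (13827 genes), each library left out in turn, no trend, each gene fitted alone, quantile normalization, median log2 ratio set to 0, and a block for the replicate number. Chosen after seeing the data were sex as a covariate, leaving out both libraries that stood apart, and removal of a spline trend (5 degrees of freedom) on exon length and GC content. Steps were tested on simulated data. Some genes of the lists are not reported here by name. Promoters are RefSeq's, on GRCm38.p6. The other tools were matplotlib 3.10.9, scipy 1.17.1, pandas 2.3.3, numpy 2.4.6 and Python 3.11.15.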

Additional observations from a re-analysis of the deposited data

How the results depend on the processing

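None of the 9 genes was called with another pseudocount, with the filter at a mean of 1 RPKM (which Tbx2, Tbx3, Hcn4 and Cacna1g did not pass), with each gene fitted alone, after quantile normalization, with sex as a covariate, without both libraries that stood apart or with the length and GC trend removed. The count was 1 (Irx3) without the intensity trend and with the median log2 ratio set to 0, and 0 to 1 with a library left out; the cause was not tested. Of the 9, genes without overlap numbered 2 after quantile normalization (Irx3 and Cacna1g), against 9.4% of all genes, and 1 to 4 with a library left out, against 14.1% to 27.5% of all genes, since fewer libraries make overlap rarer; the 4 were without Scx-/- replicate 3, against 21.1%. Genes called over the table numbered 539 to 1549 with a library left out and 1587 without both libraries that stood apart, and the cause was not tested. Irx3, Hcn4, Tbx3 and Cacna1g were lower and Gja5 higher in Scx-/- in every alternative run. The others changed sign. Gja1 was -0.08 after quantile normalization and with the median set to 0 and -0.14 with the trend removed, Kcne1 was -0.11, -0.10 and -0.08 in the same alternatives, and Gjc1 was -0.01 after quantile normalization. With a library left out, Tbx2 ranged from -0.06 to 0.54, Gja1 from -0.10 to 0.26, Gjc1 from -0.06 to 0.29, Kcne1 from -0.15 to 0.24, Gja5 from 0.08 to 0.77, Hcn4 from -1.06 to -0.50, Irx3 from -0.94 to -0.59, Tbx3 from -0.28 to -0.04 and Cacna1g from -0.26 to -0.06. Also outside these ranges, Hcn4 was -0.29 and Irx3 -0.41 with a pseudocount of 1. Cacna1g was -0.02 with the length and GC trend removed, and Tbx2 was 0.59 without both libraries that stood apart. The cause of these changes was not tested.

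With the replicate number as a block (replicate block), 573 genes and 0 of the 9 were called, and of the 6 called list genes Ryr2 and Upk1b were called and Kcne4, Efnb2, Aldh1a2 and Cd68 were not. By the labels, libraries of the same number share only that number, although by Xist each such pair was also of the same sex. Their deviations correlated at 0.09, -0.22 and -0.19 over genes. Of the Scx-/- libraries only replicate 1 correlated best with its own number. Scx-/- replicate 2 correlated best with Scx+/+ replicate 1 (0.18) and Scx-/- replicate 3 with Scx+/+ replicate 2 (0.32). The lowest libraries held 39 reads of Hcn4 and 52 of Tbx2, and 3 libraries a genotype leave intervals of about 1 log2 unit on each side for Hcn4 and Tbx2.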
